A study of Mus musculus with 12 samples.

Results

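The matrix metalloproteinases, the Adamts proteases and their tissue inhibitors were followed in mouse femur as every gene whose symbol is Mmp or Adamts plus a number (with a or b where used), or Timp1 to Timp4. This gave 46 genes of 19510 symbols, namely 23 Mmp, 19 Adamts and 4 Timp genes. The rule reads symbols and no measured value, although the families were picked with earlier results of these data known. All 46 were listed for the metaphysis and 43 for the diaphysis, where Mmp1a, Mmp1b and Mmp7 had no row. Of these, 30 in the metaphysis and 29 in the diaphysis reached 1 RPKM in at least 3 of the 6 libraries of the region and were tested. RPKM scales reads to transcript length and to library size, so levels can be compared between genes.

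Both protease families are zinc enzymes that are made as inactive precursors and act on the matrix outside the cell. Collagenases cut native fibrillar collagen, gelatinases take on the unfolded fragments, membrane-type enzymes work at the cell surface and activate other family members, and Adamts proteases trim procollagens or cut large proteoglycans. In long bones these enzymes are known for opening calcified cartilage to vessels and for the work of osteoclasts and bone-forming cells, and the 4 tissue inhibitors bind the active site of the metalloproteinases.

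The tissue was femur of 5-week-old male mice of mixed background, divided into metaphysis, the flared end beside the growth plate, and diaphysis, the shaft. GP appears in every metaphysis library title and in no diaphysis title, without being spelled out there. The chondrocyte marker Col2a1 was at 313 to 1419 RPKM in metaphysis libraries and at 38.2 to 169 RPKM in diaphysis libraries. Col10a1, of hypertrophic cartilage, was at 112 to 415 RPKM in metaphysis libraries and at 1.915 to 12.8 RPKM in diaphysis libraries. Growth-plate cartilage may thus be part of the metaphysis samples, and its share was not tested. Dlx3Oc-cKO mice (cKO below), which carry a conditional deletion of the homeobox gene Dlx3, were set against wild-type mice (WT). The 4 groups were metaphysis cKO, metaphysis WT, diaphysis cKO and diaphysis WT, with 3 libraries each and 12 in all. The labels name neither the Cre driver nor any allele that both genotypes carry. They do not tie each library to its own mouse either, and a p-value here reflects only how much these libraries varied. Each library held RNA of mixed cells, blood cells among them by their globin, and in such samples fewer cells of a type and less RNA per cell cannot be told apart.

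Depth, read from the spacing of the lowest values, was 24.6 to 34.7 M reads in metaphysis libraries and 18.5 to 54.2 M reads in diaphysis libraries. Dlx3 was at 1.98, 2.80 and 3.25 RPKM in metaphysis cKO, against 8.37, 8.90 and 10.1 RPKM in metaphysis WT, and at 0.763, 1.55 and 1.17 RPKM in diaphysis cKO, against 3.22, 7.64 and 13.1 RPKM in diaphysis WT, so every cKO library lay below every WT library of its region. Diaphysis WT replicate 1 stood apart. Its 8 osteoblast markers summed to 4302 RPKM, where the diaphysis cKO libraries had 9992 to 14410 RPKM and the other diaphysis WT libraries 17970 and 25600 RPKM, and globin took 32.6% of its summed RPKM. Results from the diaphysis are therefore given with and without WT replicate 1. Diaphysis cKO replicate 1 leaned the same way within its group. Its globin share was 26.5%, against 15.3% and 18.7% in the other cKO libraries, and its osteoblast marker sum was the lowest of them. That cKO library was kept in both sets of results.

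A few members carried most of the signal. In the metaphysis the highest means were Mmp9 (705 ± 74 RPKM in cKO and 374 ± 85 RPKM in WT), Mmp13 (602 ± 116 and 299 ± 68 RPKM in cKO and WT), Mmp2 (146 ± 7.41 and 112 ± 4.37 RPKM in cKO and WT) and Mmp14 (139 ± 8.22 and 75.6 ± 10.01 RPKM in cKO and WT; SD, n = 3 each). These 4 genes supplied 94.0% ± 0.73 of the summed Mmp RPKM in metaphysis cKO and 89.0% ± 2.2 in metaphysis WT (SD, n = 3 each). Timp2 followed at 109 ± 22.3 RPKM in metaphysis cKO and 72.3 ± 5.60 RPKM in metaphysis WT. At the other end, 13 members stayed under 1 RPKM in all 6 metaphysis libraries, among them Mmp7, which was listed at 0 in each.

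**Figure D1:**
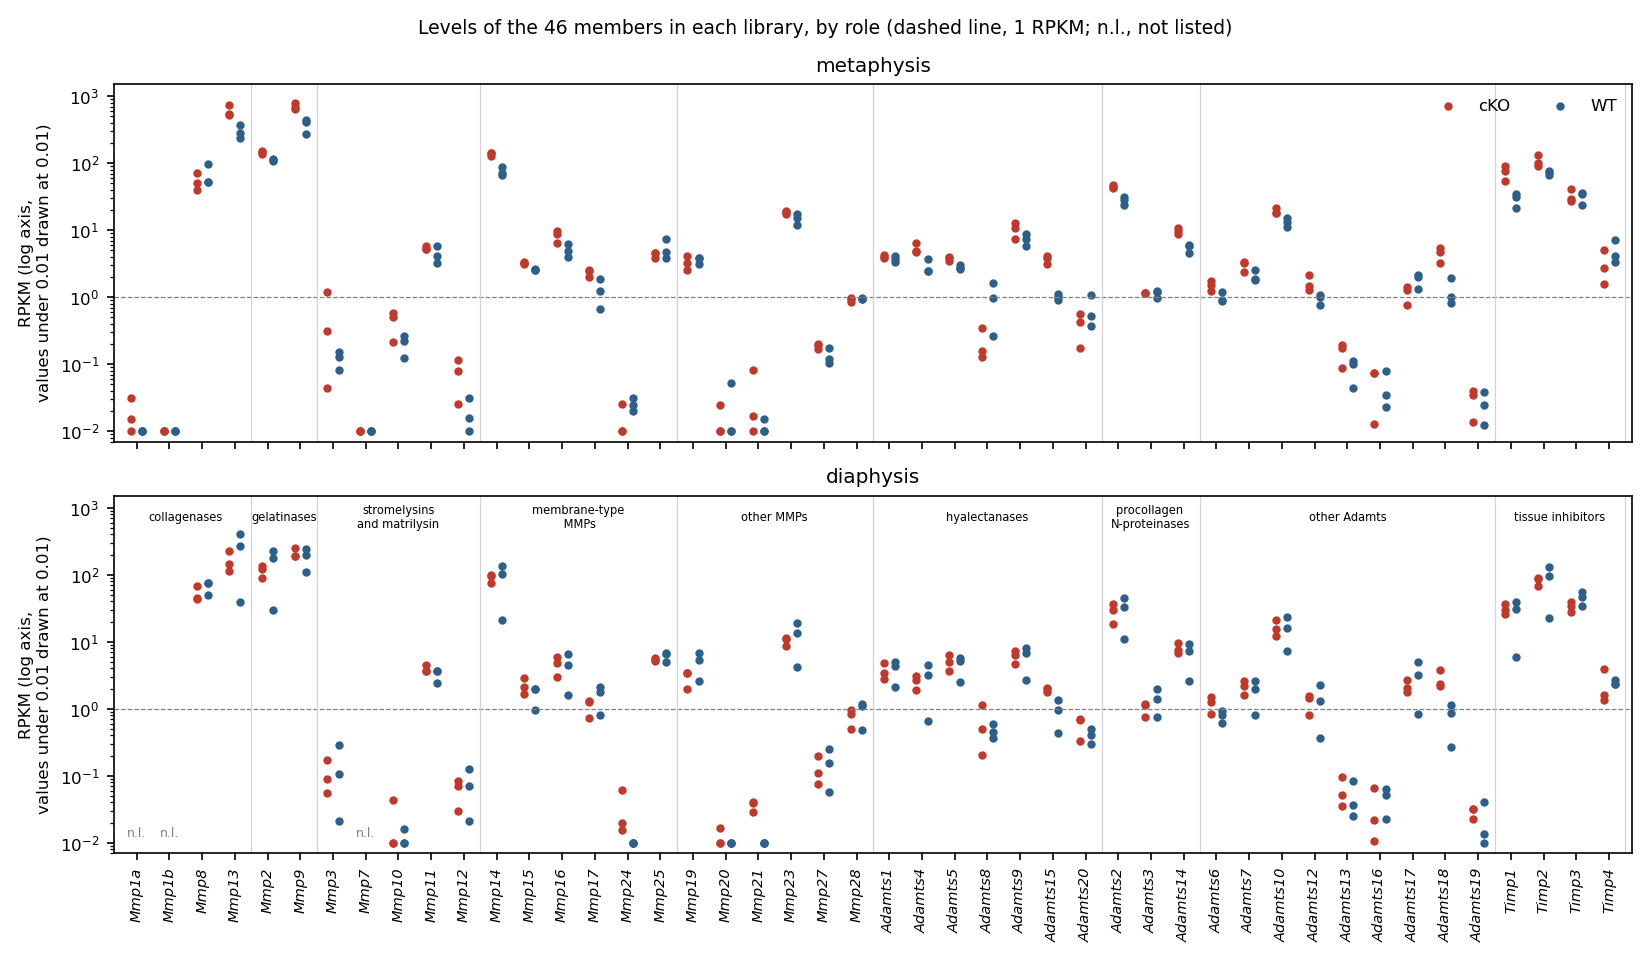
Level of each of the 46 genes in every library on a log RPKM axis, with cKO left of WT, metaphysis above and diaphysis below, ordered by role. Mmp9 and Mmp13 lie above 100 RPKM in all metaphysis libraries, while Mmp7 was at 0 in all of them.

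In the metaphysis, 10 of the 30 tested members rose in cKO and 0 fell at an adjusted p of 0.05 (limma on log2(RPKM + 0.1), Benjamini-Hochberg over all genes). That is 33.3% of the tested members, where 7.51% of the 12641 genes tested were higher and 3.89% were lower. They were Mmp2, Mmp9, Mmp13, Mmp14, Adamts2, Adamts4, Adamts14, Adamts15, Adamts18 and Timp1. The fold change was above 0 for 25 of the 30, against 45.1% of all genes, and its median was 0.53 on the log2 scale over the members and -0.04 over all genes. For 19 members the cKO libraries all lay above the WT libraries, and for 0 all below, where 18.7% and 18.4% of all genes did so (37.1% in either direction). An unadjusted limma p under 0.05 was reached by 20 of the 30, against 30.6% of all genes. Entry into the test was not independent of a rise for every member. Mmp17, Adamts3, Adamts6, Adamts12, Adamts15 and Adamts18 each had a WT library under 1 RPKM, while all their cKO libraries lay above it. Adamts17 had a cKO library under 1 RPKM and all its WT libraries above it. The count of 10 leaned on single libraries, since it was 1 when cKO replicate 3 was left out, 2 when WT replicate 1 was and 3 when WT replicate 2 was. It also leaned on the model, with 0 members called when the spread was shared over all 12 libraries. Mmp9, Mmp13, Adamts14, Adamts18 and Timp1 each passed in 3 of the 6 fits that left out 1 library, and Adamts2 in 4. The direction of the 10 called members was kept in all of these fits.

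**Figure D2:**
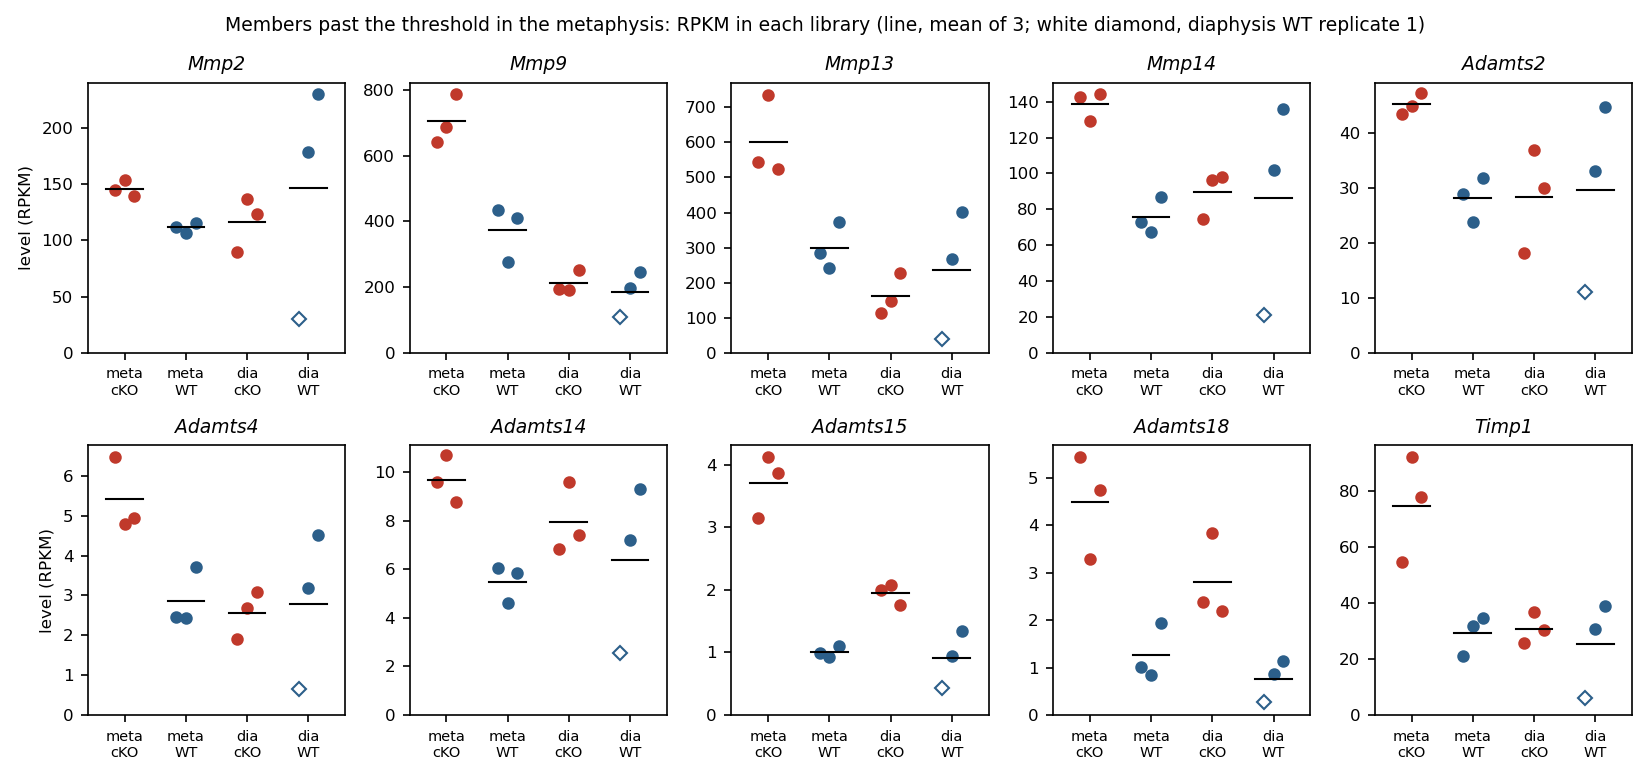
RPKM in each library for the 10 members that passed the threshold in the metaphysis, with cKO left of WT within each region and a line at the mean of 3. In the metaphysis the cKO libraries lie above the WT libraries in every panel, and the white diamond, diaphysis WT replicate 1, is the lowest diaphysis library in every panel.

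Collagenases came first by role. Mmp13, which cuts fibrillar collagen and is made by hypertrophic chondrocytes and osteoblasts, was at 546, 735 and 525 RPKM in metaphysis cKO, against 284, 240 and 374 RPKM in metaphysis WT. The groups did not overlap, and Mmp13 rose by 1.01 ± 0.20 on the log2 scale (SE; limma, adjusted p = 0.0232). Mmp8, the collagenase of neutrophils, was at 51.1, 72.0 and 40.4 RPKM in metaphysis cKO, against 96.3, 52.5 and 52.2 RPKM in metaphysis WT. Its groups overlapped and it did not pass (-0.27 ± 0.29, SE; limma, adjusted p = 0.56). Mmp1a was at no more than 0.0313 RPKM, and Mmp1b was listed at or next to 0 in every metaphysis library.

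Mmp13 and Mmp8 sit in 1 gene cluster on chromosome 9 with 8 other members (Mmp12, Mmp1b, Mmp3, Mmp1a, Mmp10, Mmp27, Mmp20 and Mmp7), from 7272514 to 7699585 in build NCBIM37 (mm9). Levels differed widely within this stretch, with Mmp13 at 240 to 735 RPKM and Mmp8 at 40.4 to 96.3 RPKM in the metaphysis, while Mmp3 had at most 1.19 RPKM and Mmp10 at most 0.588 RPKM. The bases before the RefSeq start of these genes are shown because neighbours of such different level share short motifs there. They are RefSeq promoter windows (GRCm38.p6), placed by exact match in NCBIM37 at chr9:7272354-7272513 for Mmp13, chr9:7445746-7445805 for Mmp3, chr9:7502249-7502308 for Mmp10 and chr9:7347300-7347359 for Mmp12 (all plus strand), and at chr14:55050275-55050434 (plus strand) for the membrane-type gene Mmp14. Capitals mark TGANTCA, the motif of AP-1 (Fos and Jun proteins), and TGTGGT or its reverse complement ACCACA, the core bound by Runx factors.
Mmp13: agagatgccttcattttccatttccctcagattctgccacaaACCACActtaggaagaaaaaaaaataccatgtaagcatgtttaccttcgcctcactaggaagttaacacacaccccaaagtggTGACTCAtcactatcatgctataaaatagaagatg
Mmp3: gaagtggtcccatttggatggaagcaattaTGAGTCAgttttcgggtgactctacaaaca
Mmp10: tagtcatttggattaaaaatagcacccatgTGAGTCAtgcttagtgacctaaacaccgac
Mmp12: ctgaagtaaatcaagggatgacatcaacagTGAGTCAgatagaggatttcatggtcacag
Mmp14: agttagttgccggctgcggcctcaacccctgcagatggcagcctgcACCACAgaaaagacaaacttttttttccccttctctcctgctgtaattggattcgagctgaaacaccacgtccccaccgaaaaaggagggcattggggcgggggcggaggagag
Mmp13 had TGACTCA from base -35 and ACCACA from base -118, counted from the start of transcription. Mmp3, Mmp10 and Mmp12 had TGAGTCA from bases -46, -63 and -44, and Mmp14 had ACCACA from base -114 and no TGANTCA. Windows from 250 bases before to 50 bases after the start were at hand for 32 of the 46 members. TGANTCA stood in those of 8 members, all in the cluster (Mmp13, Mmp12, Mmp1b, Mmp3, Mmp1a, Mmp10, Mmp20 and Mmp7), and in 7.81% of 32851 windows of all genes. TGTGGT in either orientation stood in those of 6 members and in 16.8% of all windows, and TAATTA, a core bound by homeobox proteins, in those of 4 members and in 5.29% of all windows, both strands searched. A match is a description of the letters and not a binding site.

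Both gelatinases rose in metaphysis cKO. Mmp9 (chromosome 2, 164766280 to 164781350), gelatinase B of osteoclasts and neutrophils, was at 642, 688 and 787 RPKM in metaphysis cKO, against 436, 278 and 410 RPKM in metaphysis WT (log2 fold change 0.94 ± 0.18, SE; limma, adjusted p = 0.0238). Mmp2 (chromosome 8, 95351227 to 95377316), gelatinase A of stromal cells, was at 145, 154 and 139 RPKM in metaphysis cKO, against 112, 107 and 116 RPKM in metaphysis WT. The libraries of each genotype lay close together for Mmp2, and a step of only 0.39 ± 0.08 on the log2 scale passed (SE; limma, adjusted p = 0.0299). It did not pass in any of the 6 fits that left out 1 library, although its fold change stayed between 0.35 and 0.42 over all alternatives.

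Of the 5 genes of stromelysins, matrilysin and macrophage elastase only Mmp11 was tested. It averaged 5.52 ± 0.35 RPKM in metaphysis cKO and 4.40 ± 1.34 RPKM in metaphysis WT (SD, n = 3 each), with overlapping groups. Its locus overlaps that of Chchd10, which runs the other way at up to 81.3 RPKM, and the library kit did not mark strand, so reads of the 2 genes cannot be told apart there. Mmp3 was at 0.0448, 1.19 and 0.312 RPKM in metaphysis cKO, against 0.0825, 0.153 and 0.129 RPKM in metaphysis WT. A single cKO library held its high value. Mmp12, the macrophage elastase, had at most 0.114 RPKM in the metaphysis and 0.125 RPKM in the diaphysis.

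Among the 6 membrane-type enzymes Mmp14 passed and 4 other tested members did not. Mmp14 (chromosome 14, 55050441 to 55060095), the enzyme that activates the Mmp2 precursor at the cell surface, was at 143, 129 and 144 RPKM in metaphysis cKO, against 72.7, 67.4 and 86.7 RPKM in metaphysis WT. It rose by 0.88 ± 0.11 on the log2 scale (SE; limma, adjusted p = 0.0115) and passed in 5 of the 6 fits that left out 1 library. Mmp16 averaged 8.31 ± 1.66 RPKM in metaphysis cKO and 5.05 ± 1.14 RPKM in metaphysis WT, and Mmp17, which is tethered by a lipid anchor, 2.35 ± 0.33 RPKM in metaphysis cKO and 1.27 ± 0.61 RPKM in metaphysis WT (SD, n = 3 each). Neither overlapped between genotypes and neither passed (limma, adjusted p = 0.0654 for Mmp16 and 0.116 for Mmp17). Mmp15 behaved likewise at a lower fold, with 3.25 ± 0.11 RPKM in metaphysis cKO and 2.59 ± 0.05 RPKM in metaphysis WT. Mmp25, a membrane-type enzyme of neutrophils, averaged 4.31 ± 0.39 RPKM in metaphysis cKO and 5.36 ± 1.87 RPKM in metaphysis WT, with overlapping groups. Mmp24 had at most 0.0316 RPKM in the metaphysis.

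The remaining Mmp genes held 1 member above 10 RPKM. Mmp23 was at 17.7, 19.2 and 19.0 RPKM in metaphysis cKO, against 15.3, 11.96 and 17.4 RPKM in metaphysis WT. These groups were close without overlapping, and the difference did not pass (0.34 ± 0.14 on the log2 scale, SE; limma, adjusted p = 0.157). Mmp19 averaged 3.31 ± 0.79 RPKM in metaphysis cKO and 3.64 ± 0.46 RPKM in metaphysis WT. Its 2 listed transcripts differed, the one at 2.09 RPKM in cKO and 1.57 RPKM in WT and the other at 1.22 RPKM in cKO and 2.07 RPKM in WT, and its locus overlaps that of a gene on the other strand. Mmp28 stayed below 1 RPKM in the metaphysis, as did Mmp20, the enamel protease, Mmp21 and Mmp27.

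The hyalectanases, Adamts proteases that cut aggrecan and versican, included the member with the lowest p of all. Adamts15 (chromosome 9, 30706740 to 30730037, minus strand) was at 3.15, 4.12 and 3.86 RPKM in metaphysis cKO, against 0.994, 0.927 and 1.11 RPKM in metaphysis WT. The lowest cKO library lay far above the highest WT library. In metaphysis WT only replicate 3 reached 1 RPKM, so the gene was tested through its cKO libraries. Adamts15 rose by 1.77 ± 0.17 on the log2 scale (SE; limma, adjusted p = 0.00705). It passed in all 6 fits that left out 1 library and in 13 of 14 alternatives, the exception being the fit with the spread shared over 12 libraries (limma, adjusted p = 0.103; 0.00529 to 0.103 over the alternatives).

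Adamts8 is the neighbour of Adamts15 on chromosome 9 (30750147 to 30771423, plus strand) and belongs to the same class. It was below the filter, at 0.156, 0.354 and 0.131 RPKM in metaphysis cKO, against 0.992, 1.65 and 0.260 RPKM in metaphysis WT. The groups overlapped for Adamts8. The ratio of Adamts15 to Adamts8 within a library was 11.7 to 29.5 in metaphysis cKO, against 0.563 to 4.27 in metaphysis WT.

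Adamts4, an aggrecanase, was at 6.48, 4.80 and 4.95 RPKM in metaphysis cKO, against 2.47, 2.44 and 3.70 RPKM in metaphysis WT, and rose by 0.91 ± 0.20 on the log2 scale (SE; limma, adjusted p = 0.0325). It passed in 2 of the 6 fits that left out 1 library. Adamts5, the other main aggrecanase, averaged 3.82 ± 0.25 RPKM in metaphysis cKO and 2.80 ± 0.20 RPKM in metaphysis WT (SD, n = 3 each), without overlap, and did not pass (0.43 ± 0.12, SE; limma, adjusted p = 0.0597). Adamts9 averaged 10.3 ± 2.7 RPKM in metaphysis cKO and 7.35 ± 1.55 RPKM in metaphysis WT, and Adamts1 4.09 ± 0.21 RPKM in metaphysis cKO and 3.73 ± 0.34 RPKM in metaphysis WT. Both overlapped between genotypes. Adamts20 was below the filter, at 0.174 to 0.571 RPKM in metaphysis cKO and 0.374 to 1.07 RPKM in metaphysis WT.

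Of the 3 procollagen N-proteinases, which remove the amino-terminal propeptide of fibrillar procollagens, 2 rose. Adamts2 (chromosome 11, 50415586 to 50621075) was at 43.4, 44.9 and 47.3 RPKM in metaphysis cKO, against 28.8, 23.8 and 31.8 RPKM in metaphysis WT (log2 fold change 0.69 ± 0.12, SE; limma, adjusted p = 0.0179). Adamts14 (chromosome 10, 60659860 to 60736186) was at 9.60, 10.7 and 8.79 RPKM in metaphysis cKO, against 6.04, 4.61 and 5.86 RPKM in metaphysis WT (0.81 ± 0.14, SE; limma, adjusted p = 0.0171). Neither gene overlapped between genotypes. Adamts3 averaged 1.16 ± 0.01 RPKM in metaphysis cKO and 1.14 ± 0.15 RPKM in metaphysis WT, with a log2 fold change of 0.03 ± 0.20 (SE).

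Adamts18 led the other Adamts genes. It was at 5.43, 3.29 and 4.75 RPKM in metaphysis cKO, against 1.01, 0.836 and 1.93 RPKM in metaphysis WT. All cKO libraries lay above all WT libraries although both groups were spread, and Adamts18 (chromosome 8, 116221026 to 116372641, minus strand), a protease with few known substrates, rose by 1.81 ± 0.32 on the log2 scale (SE; limma, adjusted p = 0.019). Adamts10, which binds fibrillin, was at 21.6, 18.1 and 17.8 RPKM in metaphysis cKO, against 15.4, 11.04 and 13.3 RPKM in metaphysis WT. It did not overlap and did not pass (0.53 ± 0.14, SE; limma, adjusted p = 0.0545). Adamts12 and Adamts6 averaged 1.65 ± 0.47 and 1.51 ± 0.24 RPKM in metaphysis cKO, against 0.956 ± 0.17 and 0.992 ± 0.18 RPKM in metaphysis WT, and did not pass either. Adamts17 averaged 1.15 ± 0.35 RPKM in metaphysis cKO and 1.82 ± 0.44 RPKM in metaphysis WT, with overlap and without passing (limma, adjusted p = 0.191). Adamts7, which cuts cartilage oligomeric matrix protein and overlaps Tbc1d2b on the other strand, averaged 3.03 ± 0.53 RPKM in metaphysis cKO and 2.09 ± 0.44 RPKM in metaphysis WT. Adamts13, the von Willebrand factor protease, Adamts16 and Adamts19 had at most 0.194, 0.0804 and 0.0393 RPKM in the metaphysis.

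Of the 4 inhibitors only Timp1 passed. Timp1 (chromosome X, 20447292 to 20451861), a secreted inhibitor, was at 54.6, 92.1 and 77.7 RPKM in metaphysis cKO, against 21.3, 31.8 and 34.8 RPKM in metaphysis WT, and rose by 1.35 ± 0.24 on the log2 scale (SE; limma, adjusted p = 0.0192). Timp2, which also takes part in the activation of Mmp2 by Mmp14, was at 92.0, 134 and 100 RPKM in metaphysis cKO, against 74.2, 76.7 and 66.0 RPKM in metaphysis WT. Its groups did not overlap, and the difference came just short of the threshold (0.57 ± 0.15, SE; limma, adjusted p = 0.0512). It passed with a pseudocount of 1 RPKM, with globin genes removed and without cKO replicate 1.

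Timp3, which is held in the matrix and also blocks Adamts4 and Adamts5, was at 29.0, 41.7 and 27.3 RPKM in metaphysis cKO, against 34.8, 36.5 and 24.2 RPKM in metaphysis WT. These groups overlapped, with a log2 fold change of 0.04 ± 0.21 (SE). Timp4 averaged 3.13 ± 1.75 RPKM in metaphysis cKO and 4.91 ± 2.07 RPKM in metaphysis WT, also with overlap. Timp1, Timp3 and Timp4 each lie inside a synapsin gene on the other strand, and these host genes had at most 1.51 RPKM in any library. Within a library the ratio of Timp1 to Timp2 was 0.593 to 0.776 in metaphysis cKO, against 0.286 to 0.527 in metaphysis WT, so the balance between the inhibitors differed without overlap. The ratio of summed Mmp to summed Timp RPKM was 7.89 ± 1.09 in metaphysis cKO and 7.09 ± 1.74 in metaphysis WT (SD, n = 3 each), with overlap.

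Markers of several cell types also differed in the metaphysis, those of cells known to make these enzymes among them. Of 9 osteoclast markers 7 were tested and 5 rose, and their sum was 3465 to 3853 RPKM in metaphysis cKO, against 1927 to 2365 RPKM in metaphysis WT. Of 8 osteoblast markers all were tested and 5 rose, with sums of 19910 to 21400 RPKM in metaphysis cKO, against 13190 to 17580 RPKM in metaphysis WT. All 3 hypertrophic chondrocyte markers rose (sums of 290 to 459 RPKM in metaphysis cKO, against 127 to 233 RPKM in metaphysis WT), and 4 of 7 chondrocyte markers did. Of 10 neutrophil markers 0 passed (0 of 10 also at an unadjusted limma p of 0.05), with sums of 7235 to 10250 RPKM in metaphysis cKO, against 7759 to 13140 RPKM in metaphysis WT. Of 5 endothelial markers 3 rose, with sums of 119 to 125 RPKM in metaphysis cKO, against 79.9 to 83.9 RPKM in metaphysis WT, and of 5 tendon and fibroblast markers 2 rose, with overlapping sums. Of 5 B lymphoid markers 3 fell, with sums of 185 to 221 RPKM in metaphysis cKO, against 281 to 353 RPKM in metaphysis WT. Of 4 megakaryocyte markers 1 fell, with sums of 344 to 473 RPKM in metaphysis cKO, against 576 to 720 RPKM in metaphysis WT. Of 6 osteocyte markers 5 were tested, 0 rose and 1 fell (Pdpn), although their sums were 395 to 574 RPKM in metaphysis cKO, against 230 to 357 RPKM in metaphysis WT. Of 6 tested monocyte and macrophage markers 2 rose and 0 fell, with overlapping sums. Of 7 erythroid markers 2 fell, of 5 skeletal muscle markers 1 fell, and of 4 adipocyte markers 0 passed. Globin took 13.5% to 17.2% of the summed RPKM in metaphysis cKO, against 19.0% to 22.1% in metaphysis WT. Their part in the protease results was not tested, and ratios within a library are set beside them.

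For Mmp9, Mmp13 and Mmp14 the ratio to a chosen marker gene of a cell known to make them did not separate the genotypes. The outcome depends on the marker, because markers of the same cell changed by different amounts in the metaphysis. On the log2 scale the osteoblast markers Sp7, Col1a1 and Pth1r changed by 1.00, 0.45 and 1.46. The osteoclast markers Acp5 and Itgb3 changed by 0.94 and -0.0045. Whether these proteases follow their source cells was not tested. Mmp9 over the osteoclast acid phosphatase Acp5 was 0.349 ± 0.018 in metaphysis cKO and 0.353 ± 0.066 in metaphysis WT (SD, n = 3 each). Mmp13 over the osteoblast transcription factor Sp7 was 4.73 ± 0.73 in metaphysis cKO and 4.67 ± 0.41 in metaphysis WT, and Mmp14 over Sp7 was 1.098 ± 0.12 in metaphysis cKO and 1.19 ± 0.08 in metaphysis WT. All 3 ratios overlapped. Mmp13 over Col10a1, the collagen of hypertrophic cartilage, overlapped as well, at 1.27 to 2.82 in metaphysis cKO and 1.64 to 2.14 in metaphysis WT. Mmp13 over Ibsp, Alpl and Mmp14, and Mmp9 over the osteoclast marker Ctsk, overlapped too. Ratios to Mmp2, itself a called member, did separate. Mmp13 over Mmp2 was 3.76 to 4.77 in metaphysis cKO, against 2.25 to 3.235 in metaphysis WT. Mmp14 over Mmp2 was 0.840 to 1.04 in metaphysis cKO, against 0.630 to 0.750 in metaphysis WT.

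Ratios of Adamts15 to bone genes, and of Mmp9 to the neutrophil collagenase, separated the genotypes. The pairs were chosen without a fixed rule, and no share over all pairs is at hand. Among single genes 37.1% did not overlap in the metaphysis. Adamts15 over Sp7 was 0.0292 ± 0.0023 in metaphysis cKO and 0.0160 ± 0.0015 in metaphysis WT, and over Adamts2 it was 0.0820 ± 0.0097 in metaphysis cKO and 0.0361 ± 0.0025 in metaphysis WT, both without overlap. Adamts18 over Adamts2 was 0.0996 ± 0.026 in metaphysis cKO and 0.0437 ± 0.015 in metaphysis WT, without overlap, while Adamts18 over Sp7 overlapped. Mmp9 over Mmp8 was 9.54 to 19.5 in metaphysis cKO, against 4.52 to 7.86 in metaphysis WT. The ratio of Mmp8 to the neutrophil granule gene Ltf overlapped, at 0.149 ± 0.018 in metaphysis cKO and 0.150 ± 0.014 in metaphysis WT, and that of Mmp25 to Ltf did so at 0.0121 ± 0.0013 and 0.01201 ± 0.0006 in metaphysis cKO and WT.

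**Figure D3:**
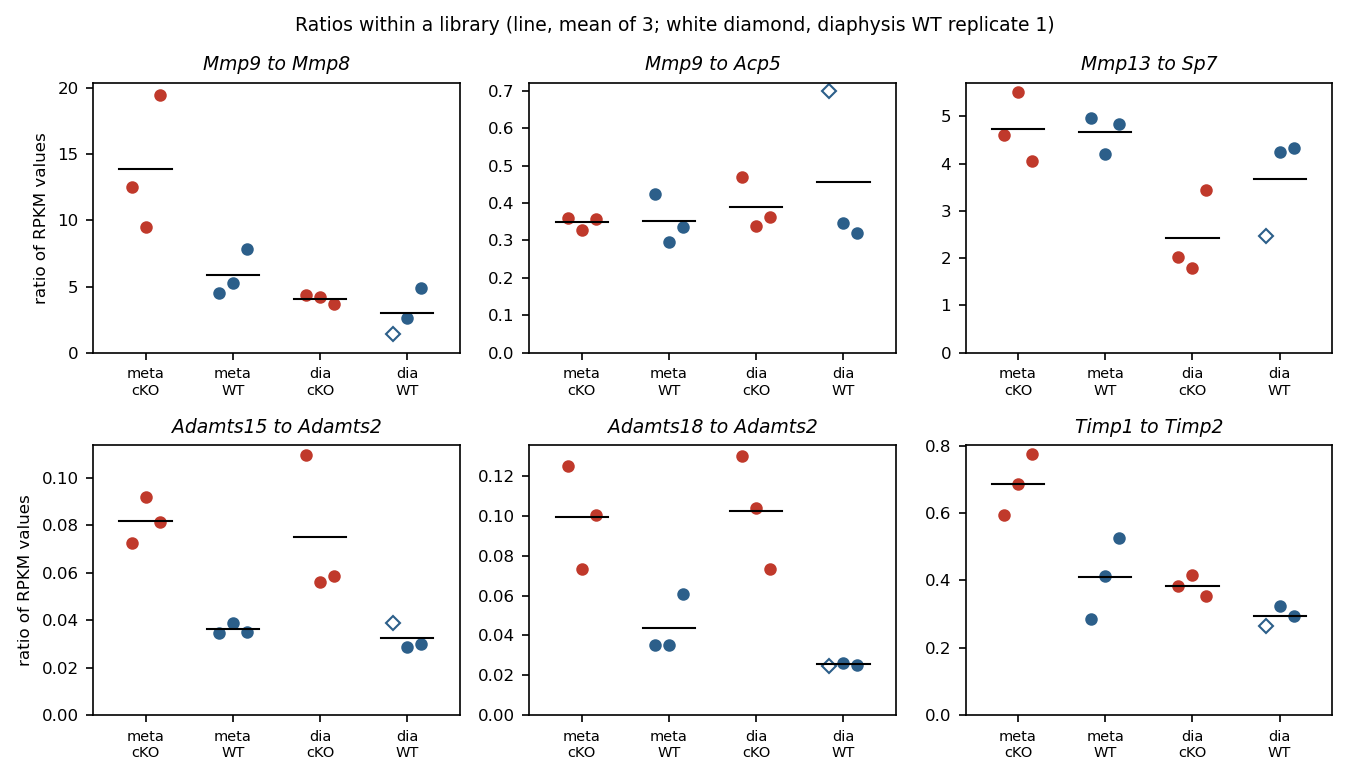
Ratios of RPKM values within each library for 6 pairs of genes, with cKO left of WT in each region and a line at the mean of 3. Mmp9 to Acp5 and Mmp13 to Sp7 overlap between genotypes in the metaphysis, while Adamts15 to Adamts2, Adamts18 to Adamts2 and Timp1 to Timp2 separate in both regions.

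Some other genes of the system also rose in the metaphysis, where 7.51% of all genes were higher, and most did not pass. Of 11 tested activators and cofactors 4 rose and 0 fell: the proprotein convertase Pcsk6 (0.84 ± 0.10), the plasminogen activator Plat (0.80 ± 0.14), Lrp1, an uptake receptor that clears these enzymes (0.61 ± 0.08), and the convertase Furin (0.43 ± 0.10; log2 fold changes with SE, limma, adjusted p = 0.0101 to 0.0387). The fold change was above 0 for 6 of the 11, with a median of 0.22, and 2 had all cKO libraries below the WT libraries without passing, Hpn and Bsg, which were named after their values were seen. Among 6 tested other inhibitors 3 rose, Tfpi2 (1.097 ± 0.16), Serpine2 (1.01 ± 0.14) and Serpinh1 (0.70 ± 0.13), the last of which is a collagen chaperone without inhibitor activity. Of 11 related proteins 2 rose, Bmp1 (0.81 ± 0.14), which removes the carboxy-terminal propeptide of procollagens, and Adam15 (0.46 ± 0.11). Of these related proteins 6 of 11 lay above 0, with a median of 0.03.

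Among 16 matrix substrates 6 rose and 0 fell. The 4 with the largest change were Eln (1.35 ± 0.17), Spp1 (1.35 ± 0.17), Acan (1.299 ± 0.18) and Ibsp (1.18 ± 0.18), which encode elastin, osteopontin, aggrecan and bone sialoprotein (log2 fold changes with SE). Dcn, the gene of decorin, named after its values were seen, had all cKO libraries below the WT libraries, at 118, 183 and 121 RPKM in metaphysis cKO, against 205, 225 and 205 RPKM in metaphysis WT, and did not pass (limma, adjusted p = 0.0593). Of 13 tested transcription factors known to bind Mmp promoters 4 rose, Sp7 (1.00 ± 0.13), Runx2 (0.95 ± 0.11), Etv5 (0.56 ± 0.10) and the AP-1 member Fosl2 (0.45 ± 0.11). Sp7, Runx2, Ibsp and Acan also stand among the cell type markers above, so these lists are not independent of them.

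In the diaphysis 0 of 29 tested members passed by limma, as did 0% of the 12540 genes tested. At an unadjusted p of 0.05 there were 2 members, Adamts18 and Adamts15, where 0.686% of all genes reached it. Adamts18 was at 2.38, 3.85 and 2.19 RPKM in diaphysis cKO, against 0.274, 0.873 and 1.13 RPKM in diaphysis WT, a log2 fold change of 1.88 ± 0.49 (SE; limma, unadjusted p = 0.0053, adjusted p = 1). Adamts15 was at 2.002, 2.07 and 1.76 RPKM in diaphysis cKO, against 0.429, 0.947 and 1.35 RPKM in diaphysis WT, a log2 fold change of 1.14 ± 0.40 (SE; limma, unadjusted p = 0.0235, adjusted p = 1).

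These were also the only 2 tested members whose cKO libraries all lay above the WT libraries in the diaphysis, where 2.24% of all genes did so. Both did so in the metaphysis too, as did 0.868% of the 12321 genes tested in both regions. In diaphysis WT only replicate 3 reached 1 RPKM for either gene, so both were tested there through their cKO libraries. Being tested was thus not independent of their rise. Without WT replicate 1 the diaphysis log2 fold changes were 1.37 ± 0.30 for Adamts18 and 0.73 ± 0.27 for Adamts15 (SE; limma, unadjusted p = 0.00167 and 0.0245, adjusted p = 0.453 and 0.914). Within a library, Adamts18 over Adamts2 was 0.0732 to 0.130 in diaphysis cKO, against 0.0247 to 0.0264 in diaphysis WT, and Adamts15 over Adamts2 was 0.0562 to 0.110 in diaphysis cKO, against 0.0286 to 0.0387 in diaphysis WT. In both ratios WT replicate 1 lay below every cKO library, as the other WT libraries did. Adamts15 over Sp7 overlapped in the diaphysis, unlike in the metaphysis, at 0.0362, 0.0253 and 0.0265 in diaphysis cKO, against 0.0268, 0.0150 and 0.0145 in diaphysis WT, with WT replicate 1 above 2 of the cKO libraries. Adamts18 over Sp7 did not overlap there, at 0.0330 to 0.0468 in diaphysis cKO, against 0.0122 to 0.0171 in diaphysis WT. Of the cell type marker sums in the diaphysis, only that of osteocytes did not overlap. It was 507 to 564 RPKM in diaphysis cKO, against 130 to 488 RPKM in diaphysis WT. The tested markers without overlap there were Mepe and Sost of osteocytes and Ihh of hypertrophic chondrocytes, all higher in cKO. Their part in the values of Adamts18 and Adamts15 was not tested.

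The abundant members overlapped between genotypes in the diaphysis, and WT replicate 1 was the lowest library for most of them. Mmp13 was at 113, 147 and 229 RPKM in diaphysis cKO, against 39.7, 268 and 402 RPKM in diaphysis WT. Mmp2 was at 90.1, 137 and 124 RPKM in diaphysis cKO, against 30.04, 179 and 230 RPKM in diaphysis WT. Mmp14 was at 74.7, 96.3 and 97.9 RPKM in diaphysis cKO, against 21.2, 102 and 136 RPKM in diaphysis WT. In all 3 genes the other WT libraries lay above every cKO library. Mmp9 was at 193, 190 and 252 RPKM in diaphysis cKO, against 109, 197 and 244 RPKM in diaphysis WT, so that its other WT libraries lay among those of cKO.

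Mmp8, the neutrophil enzyme, did not follow that library. It was at 43.9, 45.1 and 68.8 RPKM in diaphysis cKO, against 76.6, 74.9 and 49.9 RPKM in diaphysis WT. Mmp23 was at 11.01, 11.3 and 8.65 RPKM in diaphysis cKO, against 4.21, 13.4 and 18.9 RPKM in diaphysis WT. The low value of Mmp23 was again that of WT replicate 1.

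Timp1 was at 25.7, 36.7 and 30.3 RPKM in diaphysis cKO, against 5.94, 30.9 and 39.1 RPKM in diaphysis WT. Timp2 was at 67.2, 88.4 and 85.4 RPKM in diaphysis cKO, against 22.4, 95.7 and 133 RPKM in diaphysis WT. For Timp2 the 2 other WT libraries lay above all of cKO, while for Timp1 1 of them lay among the cKO libraries. Timp3, the matrix-bound inhibitor, was at 27.6, 34.5 and 38.8 RPKM in diaphysis cKO, against 34.4, 46.7 and 56.0 RPKM in diaphysis WT (-0.43 ± 0.22 on the log2 scale, SE; limma, unadjusted p = 0.0915, adjusted p = 1). Timp1 over Timp2 was 0.354 to 0.416 in diaphysis cKO, against 0.265 to 0.322 in diaphysis WT, without overlap as in the metaphysis.

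Adamts2, the main procollagen N-proteinase, was at 18.2, 36.9 and 29.96 RPKM in diaphysis cKO, against 11.1, 33.1 and 44.7 RPKM in diaphysis WT. Adamts14 was at 6.86, 9.61 and 7.43 RPKM in diaphysis cKO, against 2.57, 7.23 and 9.30 RPKM in diaphysis WT. Both overlapped between genotypes. Adamts4 was at 1.90, 2.69 and 3.09 RPKM in diaphysis cKO, against 0.661, 3.19 and 4.51 RPKM in diaphysis WT, and Adamts10 at 12.2, 21.4 and 15.5 RPKM in diaphysis cKO, against 7.26, 16.2 and 23.2 RPKM in diaphysis WT. The tested members without per-library values had overlapping groups in the diaphysis, with means between 1.03 and 6.10 RPKM in cKO and between 1.31 and 6.09 RPKM in WT. The members below the filter had at most 1.48 RPKM there, a value of Adamts6.

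Leaving out WT replicate 1 brought most of the members that were above 0 in the diaphysis to below 0. With all libraries the fold change was above 0 for 18 of 29 members (50.7% of all genes), and without that library for 4 of 29 (47% of all genes). Those 4 were Adamts18, Adamts15, Mmp15 and Mmp11. The median log2 fold change over the tested members was 0.18 with it and -0.33 without it. Without it 8 members lay below 0 at an unadjusted p of 0.05, where 3.45% of all genes did (4.57% in either direction), and 0 genes passed after adjustment (limma). Without it 11 members had all cKO libraries below the WT libraries and 2 had them above, where 9.25% and 8.67% of all genes did. Mmp13 then had a log2 fold change of -1.07 ± 0.31, Mmp2 of -0.82 ± 0.23 and Mmp14 of -0.40 ± 0.20 (SE; limma, adjusted p = 0.625, 0.624 and 1). The osteoblast markers of that library were low too, as given above, and their part in its protease values was not tested. Diaphysis cKO replicate 1, with the highest globin share of its group, stayed in these fits.

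**Figure D4:**
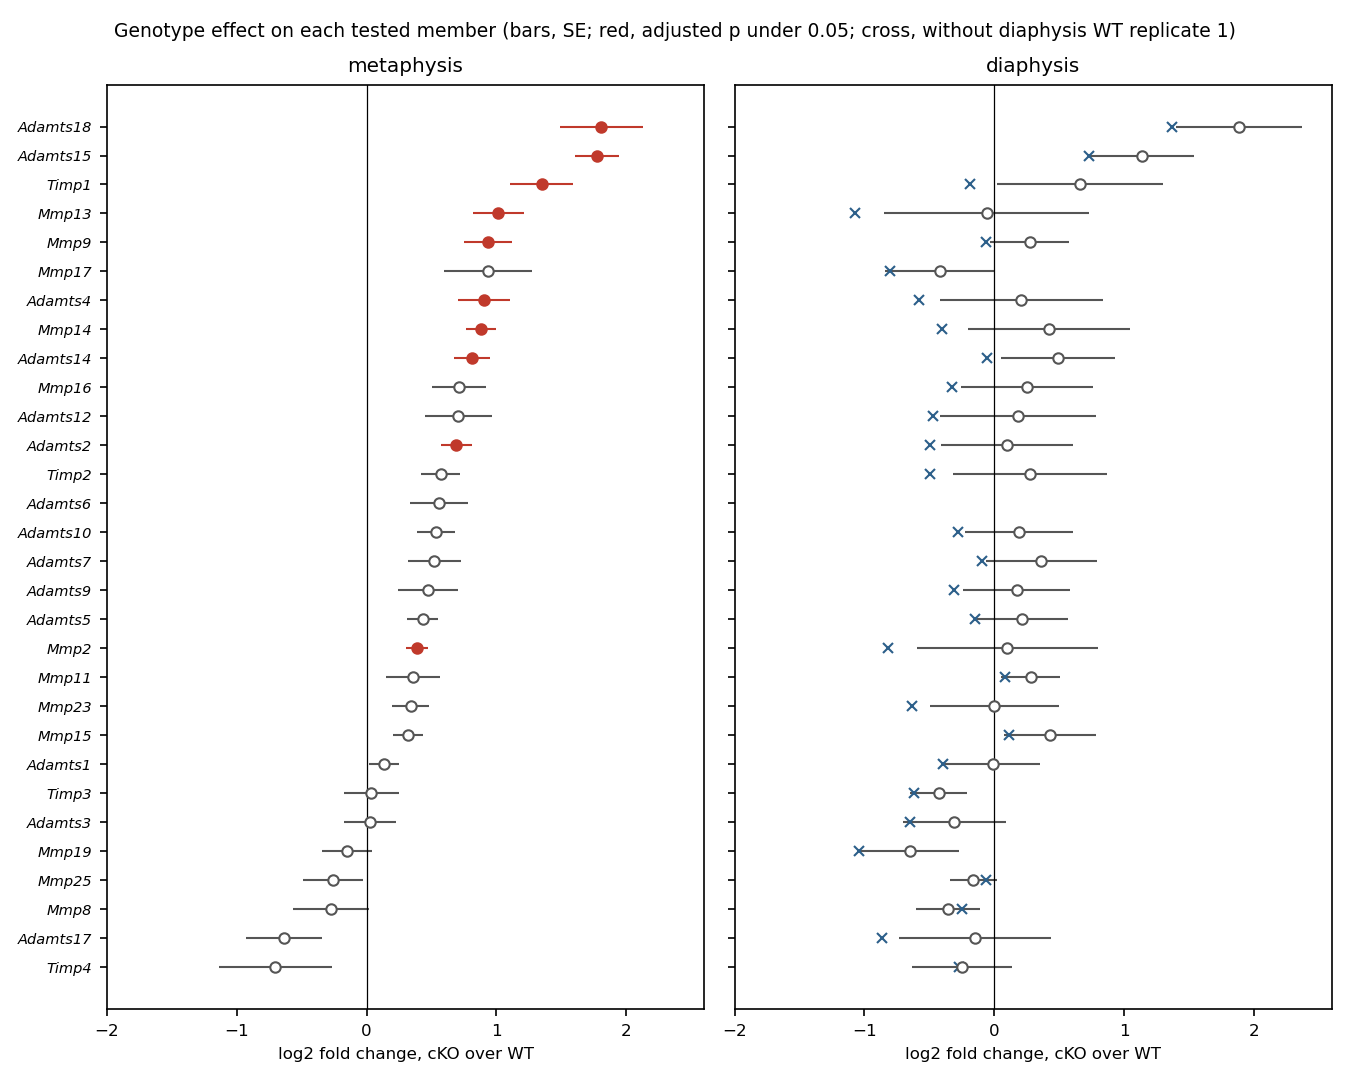
Log2 fold change of cKO over WT with its SE for each tested member, metaphysis left and diaphysis right, with the 10 called members in red. The crosses give the diaphysis value without WT replicate 1, which is below 0 for 25 of 29 members and stays above 0 for Adamts18 (1.37) and Adamts15 (0.73).

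Whether the genotype effect differed between regions was tested as the metaphysis effect minus the diaphysis effect in 1 fit of 12 libraries. No member passed (0 of 29, and 0% of 12321 genes, by limma), and 1 member, Mmp17, lay under an unadjusted p of 0.05, where 4.02% of all genes did. Mmp17 differed by 1.35 ± 0.57 on the log2 scale (SE; limma, adjusted p = 0.908). The effect that passed in the metaphysis and not in the diaphysis is therefore not shown to differ between them with all libraries.

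Without diaphysis WT replicate 1 the difference passed for 4 members, all larger in the metaphysis, where 1.51% of all genes passed in that direction and 2.01% in either. They were Mmp13 (2.09 ± 0.40), Timp1 (1.53 ± 0.34), Mmp14 (1.29 ± 0.23) and Mmp2 (1.21 ± 0.23; log2 scale, SE; limma, adjusted p = 0.0487 each). Under the same fit Adamts18 differed by 0.44 ± 0.47 (SE; limma, adjusted p = 0.612) and Adamts15 by 1.04 ± 0.28 (SE; limma, adjusted p = 0.0592). With all libraries Mmp13 had 1.07 ± 0.93, Timp1 0.69 ± 0.78, Mmp14 0.46 ± 0.72 and Mmp2 0.29 ± 0.80 (SE; limma, adjusted p = 0.908 to 0.955). These 4 calls rest on leaving out a WT library that stood apart while keeping diaphysis cKO replicate 1, which leaned the same way within its group.

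The 2 regions had separate tables, so their levels are set side by side without a test. In WT tissue Mmp9 averaged 374 ± 85 RPKM in the metaphysis and 184 ± 68 RPKM in the diaphysis, and Mmp13 299 ± 68 RPKM in the metaphysis and 237 ± 183 RPKM in the diaphysis (SD, n = 3 each). Mmp9, Mmp13, Mmp2, Mmp14 and Timp2 were the 5 highest members in both regions and both genotypes, with Mmp9 first except in diaphysis WT, where Mmp13 was first by mean and the 2 genes overlapped. Hypertrophic chondrocyte markers summed to 127 to 233 RPKM in metaphysis WT and to 2.59 to 16.1 RPKM in diaphysis WT, while Mmp13 was at 240 to 374 RPKM in metaphysis WT and at 39.7 to 402 RPKM in diaphysis WT. Mmp10 was at 0.125 to 0.264 RPKM in metaphysis WT and at no more than 0.0160 RPKM in diaphysis WT.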

How the data were processed

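RNA from 12 femur libraries was extracted with Trizol and made into libraries with the TruSeq RNA kit, per the labels' protocols. The authors deposited 1 table per region with RPKM values per RefSeq transcript, per the file headers. Build mm9, Partek 6.6, TopHat 1.3.2, Bowtie 0.12.7.0 and CASAVA 1.8.2 stand in the submitters' processing notes. Their filters and how reads were shared between transcripts were not given in the sources used. RPKM corrects for length and depth and not for composition, so a large globin share lowers the other genes.

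Transcripts were summed per symbol. A gene was tested in a region where 3 or more of 6 libraries reached 1 RPKM. These could all be of 1 genotype, so a low gene could be tested through the group where it was high. Tests used log2(RPKM + 0.1), a scale that understates changes of low genes, and limma 3.58.1 with its trend option (in R 4.3.3), 2-sided, with Benjamini-Hochberg adjustment over all genes and a threshold of 0.05. Each region was fitted alone, since the values came in 1 table per region and whether both were made alike was not given. Regions were compared by an interaction contrast over all 12 libraries. The code was tested on simulated data. Replicate numbers follow record order and only name a library.

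Reads per library were estimated from the lowest values, of which 70.6% to 75.7% came within 0.1 of whole reads (20% by chance), too few to rebuild counts. On a 2 kb transcript 10 reads were 0.0922 to 0.270 RPKM, so levels under that rest on few reads.

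Members, gene lists and markers were chosen with earlier results of these data known. Per-library values are given for members past 0.05 in a region or in the difference, with a WT mean of at least 10 RPKM, or without overlap at an unadjusted p under 0.05 in the diaphysis; Mmp3 and Adamts8 were added after their values were seen. Up to 4 called genes are named per list, by size of change. Alternatives were other pseudocounts (1 and 0.01 RPKM), no filter, median-ratio scaling, removal of globin genes, the highest transcript per symbol, no trend, a shared spread and leaving out each library. Gene positions come from the GENCODE annotation of NCBIM37.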

Additional observations from a re-analysis of the deposited data

How the results depend on the processing

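Results kept their direction and their side of the threshold under most alternatives. No paired analysis was possible because the labels give no replicate numbers that the groups share. The metaphysis count of 1441 genes was 789 without a filter and 7 with the spread shared over 12 libraries, and 105 to 1418 when each library was left out. The 10 members called there were 5 without a filter, 0 with the shared spread, and 1 to 10 when each library was left out. These have fewer libraries, more genes tested or a spread that takes in the diaphysis. With median-ratio scaling 12 members were called and with globin removed 11. Mmp19 in the metaphysis reversed to 0.39 (log2) with its highest transcript. Leaving out each library in turn gave, for log2 fold changes in the metaphysis, -0.50 to 0.0182 for Mmp8, -0.32 to 0.0197 for Mmp19, -0.46 to 0.0020 for Mmp25, -0.0776 to 0.0899 for Adamts3 and -0.15 to 0.15 for Timp3. In the diaphysis the same gave 4 to 22 members above 0, and -0.82 to 0.65 for Mmp2, -0.0625 to 0.52 for Mmp9, -1.07 to 0.59 for Mmp13, -0.40 to 0.93 for Mmp14, -0.50 to 0.50 for Adamts2, -0.58 to 0.72 for Adamts4, -0.0560 to 0.85 for Adamts14 and -0.18 to 1.17 for Timp1. For the difference between regions it gave 0 to 247 genes and 0 to 4 members called, 15 to 26 members above 0, and -0.26 to 1.21 for Mmp2, -0.0514 to 1.29 for Mmp14 and -0.42 to 0.44 for Adamts18, where a pseudocount of 1 RPKM gave 0.17. Without a filter 2 genes were called there. The cause was not tested. Depth limits the members under 1 RPKM, for which a value can rest on a few reads.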
